A study of Mus musculus with 9 samples.

Results

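Merged ATAC-seq regions lying within 5 Mb of Hoxa9, Prmt1 or Ctnnb1 were examined in mouse LSK cells, the lineage-negative, Sca-1-positive, Kit-positive fraction of haematopoietic stem and progenitor cells. They are 1166 of the 76253 regions made by joining all peaks of the 9 libraries that shared at least 1 bp, and a region was a member when its midpoint fell inside the window. The Hoxa9 flank held 399 regions on chromosome 6, the Prmt1 flank 415 on chromosome 7 and the Ctnnb1 flank 352 on chromosome 9. Coordinates are GRCm38, in which Hoxa9 spans chr6:52223097-52227370, Prmt1 chr7:44976755-44986420 and Ctnnb1 chr9:120933400-120960507. The question put to each flank was whether it differed in the mutant of its own gene more than in the mutants of the other genes.

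The groups were Bcat_KO (β-catenin, the product of Ctnnb1), HOXA9_KO and PRMT1_KO with 2 libraries each, a dKO of β-catenin and Hoxa9 with 1 library, and WT with 2. The titles call the mutants KO while the genotype tags call them knockdown. Strain, sex, age, the alleles and any Cre driver are not given in the sources used here, and the series text names transplanted mice as the cell source for Prmt1KO only. Nothing in the labels ties the libraries of a group to different animals, and the p-values then describe only how these samples vary, which may be technical.

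ATAC-seq inserts adapters into open DNA with the Tn5 transposase, so a peak marks accessible chromatin such as an active promoter or enhancer. An engineered allele can bring a linked stretch of DNA from the strain in which it was made, and a deleted gene may also act on its neighbours in cis, which is why the DNA beside a targeted gene is worth a look of its own. Hoxa9 belongs to the Hoxa cluster of homeobox transcription factor genes, which lie side by side, are expressed together in immature blood cells and are shut off as these differentiate. Prmt1 makes most of the asymmetrically dimethylated arginine of the cell and lies in gene-dense DNA. Ctnnb1 encodes β-catenin, the transcriptional effector of canonical Wnt signalling.

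The promoters of the 3 targeted genes, and of Hoxa5 and Jazf1, whose starts had a peak in both HOXA9_KO libraries and in neither WT library (Hoxa5) or the reverse (Jazf1), are shown as 250 bases before the RefSeq start (GRCm38.p6, on the strand of the gene). The regions at Hoxa5 and Jazf1 were chosen after their values were seen. Capitals mark GC boxes (GGGCGG or its complement) and CCAAT boxes (CCAAT or its complement), both elements of housekeeping promoters.
Hoxa5, chr6:52204588-52204837, minus strand: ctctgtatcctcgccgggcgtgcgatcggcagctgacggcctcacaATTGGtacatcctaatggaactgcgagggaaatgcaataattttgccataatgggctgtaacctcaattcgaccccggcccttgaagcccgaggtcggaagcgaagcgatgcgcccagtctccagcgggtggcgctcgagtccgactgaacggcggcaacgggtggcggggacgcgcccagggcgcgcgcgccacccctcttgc
Jazf1, chr6:53068625-53068874, minus strand: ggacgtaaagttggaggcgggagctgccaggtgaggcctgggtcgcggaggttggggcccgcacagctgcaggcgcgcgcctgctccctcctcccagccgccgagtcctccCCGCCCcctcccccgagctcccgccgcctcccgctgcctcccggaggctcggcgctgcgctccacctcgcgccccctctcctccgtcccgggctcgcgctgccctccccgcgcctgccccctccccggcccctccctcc
Hoxa9, chr6:52227371-52227620, minus strand: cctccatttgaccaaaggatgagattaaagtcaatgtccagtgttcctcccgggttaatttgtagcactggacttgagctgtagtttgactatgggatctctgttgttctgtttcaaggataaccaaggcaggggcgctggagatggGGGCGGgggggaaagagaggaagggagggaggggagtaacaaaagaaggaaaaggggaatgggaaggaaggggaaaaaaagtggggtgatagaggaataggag
Prmt1, chr7:44986421-44986670, minus strand: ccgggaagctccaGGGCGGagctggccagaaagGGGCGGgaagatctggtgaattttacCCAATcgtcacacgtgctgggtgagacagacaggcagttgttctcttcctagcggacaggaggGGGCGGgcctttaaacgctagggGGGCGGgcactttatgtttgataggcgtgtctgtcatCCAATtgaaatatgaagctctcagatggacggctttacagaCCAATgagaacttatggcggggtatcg
Ctnnb1, chr9:120933150-120933399, plus strand: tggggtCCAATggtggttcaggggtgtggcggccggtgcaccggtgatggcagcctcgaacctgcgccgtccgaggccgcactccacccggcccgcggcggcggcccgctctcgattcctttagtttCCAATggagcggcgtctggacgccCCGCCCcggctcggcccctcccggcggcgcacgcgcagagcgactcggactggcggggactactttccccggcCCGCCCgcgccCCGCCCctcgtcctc

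The Prmt1 promoter held 4 GC boxes and 3 CCAAT boxes, and all 250 of its bases lay inside an accessible region. Ctnnb1 held 3 GC boxes and 2 CCAAT boxes with 197 bases inside a region. Jazf1 held 1 GC box with all 250 bases inside a region, Hoxa5 held 1 CCAAT box with 152 bases inside a region, and Hoxa9 held 1 GC box with 0 bases inside a region. Their GC content was 54.8% for Prmt1, 74.8% for Ctnnb1, 78.8% for Jazf1, 63.6% for Hoxa5 and 49.6% for Hoxa9, against a median of 52.4% over 32851 mouse promoters. Among those promoters 32.7% held a GC box and 33.8% a CCAAT box on either strand. An ETS core (CCGGAA, in 12.03% of all promoters), a HOX-PBX motif (TGATTNAT, in 2.82%) and a TCF/LEF core (CTTTGA, in 13.8%) were searched in the same way on both strands, and none was found in these 5 windows. No matches overlapped each other. A match or its lack describes these letters only.

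The LSK label was checked against its markers. Of 8 LSK markers with a start in the promoter table, 7 had a peak within 1 kb of their start in all 8 libraries of the paired groups, and the eighth, Gata2, had one in 6. No library had a start peak at the T-cell genes Cd3e, Cd3g and Cd8a or at the NK-cell genes Ncr1 and Klrb1c. Of 3 B-cell genes Ebf1 alone had a start peak, in all 8 libraries, and of the myeloid genes Lyz2 had one in all 8, Itgam in 3, S100a8 in 1, and Ly6g and Ccr2 in none. The erythroid gene Klf1 had one in all 8, Hbb-bs in 2 and Hba-a1 in 1. The lists held between 39881 and 45460 peaks in the 6 single-mutant libraries, 10639 in the dKO, and 35581 and 28325 in WT. Between 12 and 16 peaks on the male-specific part of chromosome Y were listed in each single-mutant library and 6 in the dKO, against 0 in either WT library, so sex and genotype cannot be told apart in any comparison with WT.

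Peaks were listed at all 3 targeted genes in every single mutant. The Prmt1 start, in chr7:44986095-44987184, had a fold over local background of 16.2 and 17.6 in PRMT1_KO, 15.9 and 16.9 in Bcat_KO, 14.6 and 16.04 in HOXA9_KO, 6.99 in the dKO, and 11.8 and 14.3 in WT. By rank it stood at 413 and 431 in the PRMT1_KO lists, 436 and 498 in Bcat_KO, and 745 and 800 in HOXA9_KO. The rank was 2123 in the dKO list, and 1926 and 1148 in the WT lists. These folds are the authors' values for single peaks, are not normalized between libraries, and serve here only as a description.

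At the Ctnnb1 start, in chr9:120933203-120934079, the fold was 9.19 and 8.77 in Bcat_KO, 8.60 and 10.7 in PRMT1_KO, 9.43 and 9.70 in HOXA9_KO, and 8.31 and 8.34 in WT, with no peak listed in the dKO. A second region at the end of the gene, chr9:120960446-120960885, was listed in 7 of the 8 libraries of the paired groups. Inside Hoxa9, the region chr6:52225826-52226481 had a fold of 4.45 and 5.09 in HOXA9_KO, 4.37 and 4.67 in Bcat_KO, 4.57 and 6.23 in PRMT1_KO, and 4.78 in WT replicate 1, with no peak listed in WT replicate 2 or in the dKO. Both HOXA9_KO libraries therefore had a peak within the gene named in their label. A peak says nothing about the protein or about which exons an allele removes, so these values do not check the genotype.

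The 3 flanks differed in how much of their chromatin was shared. In the Prmt1 flank, with 229 coding genes, 146 regions (35.2%) had a peak in all 8 libraries of the paired groups, against 25.1% of all regions. The Hoxa9 flank, with 117 coding genes, had 88 such regions (22.1%), and the Ctnnb1 flank, with 97, had 82 (23.3%). Regions with a peak in 1 of the 8 libraries were 114 (27.5%) in the Prmt1 flank, 143 (35.8%) in the Hoxa9 flank and 117 (33.2%) in the Ctnnb1 flank, against 31.9% of all regions. Density was close to even, at 39.9 regions per Mb in the Hoxa9 flank, 41.5 in the Prmt1 flank and 41.4 in the Ctnnb1 flank. Within 1 kb of a coding-gene start lay 85 regions (21.3%) of the Hoxa9 flank, 101 (24.3%) of the Prmt1 flank and 66 (18.75%) of the Ctnnb1 flank, against 16.4% of all regions. The median region was 337 bp wide in the Hoxa9 flank, 448 bp in the Prmt1 flank and 378.5 bp in the Ctnnb1 flank, against 379 bp overall.

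The member with the best mean rank of each flank was strong in all 8 libraries. In the Hoxa9 flank it was the start of Avl9, named after a yeast gene of the late secretory pathway, with ranks between 124 and 342 in the 8 libraries. For the Prmt1 flank it was the start of Ap2a1, a subunit of the clathrin adaptor AP-2, with ranks between 70 and 623. A 418 bp region inside Lars2, the mitochondrial leucyl-tRNA synthetase gene, had the best mean rank of the Ctnnb1 flank, with ranks between 18 and 26, and it was 45 in the dKO list. Its fold was between 37.5 and 48.5 in the 8 libraries, and it lay 67554 bp from the nearest listed start. No filter for regions of artefactual signal was applied here, so its rank alone does not show open chromatin.

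At the window edges the listing was mixed. The last region inside the lower edge of the Hoxa9 window lay 1.1 kb from it with a peak in 1 library, and the first outside lay 34.5 kb from it with a peak in 7. Beside the upper edge of the Prmt1 window, the last region inside had a peak in all 8 libraries and the first outside, 686.8 kb away, in 1. The Ctnnb1 window ran past the last region of chromosome 9, which ended at position 124440819 and had a peak in all 8 libraries.

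To compare lists of unequal length, all 8 lists were reduced to the length of the shortest, keeping the 28325 peaks with the highest −log10 p in each. This left 231 regions of the Hoxa9 flank with a place in at least 1 shortened list and 168 below it. For the Prmt1 flank the numbers were 280 and 135, and for the Ctnnb1 flank 202 and 150. A call of opened required a place in the top 14162 peaks of both mutant lists and no place in the shortened list of any comparison library, and a call of closed the reverse. A looser rule asked for a place anywhere in the shortened lists of one side and in none of the other. In such bulk libraries, fewer cells with an open region and a region less open in each cell cannot be told apart. No p is given for single calls by either rule. Against WT, an exact permutation test of 2 libraries against 2 cannot go below 0.333. Single calls against the other mutants were not tested either.

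By the stricter rule, few members of any flank were called and none was called in a mutant against the other mutants. HOXA9_KO differed from WT at 2 of 231 regions of its own flank (0.866%), against 0.606% of all regions. PRMT1_KO differed from WT at 3 of 280 regions of its own flank (1.07%), against 0.258% of all regions, and all 3 were opened, against 0.188% of all regions opened. Bcat_KO differed from WT at 1 of 202 regions of its own flank, against 0.352% of all regions, and that region was closed, against 0.0832% of all regions closed. Outside its own flank, Bcat_KO had 3 calls in the Hoxa9 flank, PRMT1_KO had 1 there, and no other flank held a call of a mutant from another gene. Against the other 2 single mutants together, 0.105% of all regions were called in HOXA9_KO, 0.0235% in PRMT1_KO and 0.0107% in Bcat_KO, and 0 members were called in any of them. At backgrounds this low, 0 calls among 202 to 280 regions is also what the share over all regions gives to the nearest whole region.

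The 2 own-flank calls of HOXA9_KO lay far from Hoxa9. A region 45520 bp from Snx10, a sorting nexin of endosomes, at chr6:51636199-51636885, had a fold of 9.31 and 11.1 in HOXA9_KO, 6.91 and 7.40 in Bcat_KO, and 11.5 and 6.47 in PRMT1_KO, while neither WT list held a peak. All 6 single-mutant libraries listed it, so it set the mutants together apart from WT and did not belong to HOXA9_KO. A region 29587 bp from Neurod6, a neuronal transcription factor gene, at chr6:55710850-55711270, had a peak in HOXA9_KO replicate 2 alone of that pair (fold 4.55) and none in Bcat_KO. Its fold was 9.60 and 8.24 in PRMT1_KO, and 8.51 and 7.88 in WT. It was called closed in Bcat_KO as well as in HOXA9_KO.

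The other calls in the Hoxa9 flank belonged to mutants of other genes. A region 35057 bp from Adcyap1r1, the PACAP receptor gene, at chr6:55536512-55537017, had no peak in either Bcat_KO library. Its fold was 8.78 and 13.2 in HOXA9_KO, 8.45 and 6.59 in PRMT1_KO, 5.94 in the dKO, and 8.51 and 7.45 in WT. It was thus missing in Bcat_KO and present in the dKO, although both carry the β-catenin label. A 159 bp region 7312 bp from Tra2a, a splicing regulator gene, at chr6:49236451-49236609, had a fold of 19.1 and 24.6 in Bcat_KO, 19.6 and 19.3 in PRMT1_KO and 21.8 in HOXA9_KO replicate 2. No peak was listed there in HOXA9_KO replicate 1, the dKO or WT, so a peak of high fold was either listed or absent within 1 group.

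The 3 own-flank calls of PRMT1_KO were regions without a WT peak. Next to Ftl1, which encodes the ferritin light chain, and 374 bp from Bax, a promoter of apoptosis, the region chr7:45460894-45461321 had a fold of 5.79 and 5.83 in PRMT1_KO, 5.48 and 5.02 in Bcat_KO, and 3.11 and 5.01 in HOXA9_KO. Inside Saa3, an acute-phase serum amyloid gene, chr7:46712267-46712708 had a fold of 8.79 and 8.28 in PRMT1_KO, 7.34 and 4.49 in Bcat_KO, and 5.75 in HOXA9_KO replicate 1 alone. The third region, 29636 bp from the sensory receptor gene Mrgpra9 at chr7:47204791-47205283, had a fold of 9.37 and 10.3 in PRMT1_KO, 8.2 and 7.6 in Bcat_KO, and 8.39 in HOXA9_KO replicate 1 alone. Each of the 3 was therefore listed in both PRMT1_KO and both Bcat_KO libraries and in at least 1 HOXA9_KO library.

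The own-flank call of Bcat_KO was a region missing from that mutant. At chr9:116058887-116059438, inside Gadl1, a decarboxylase gene, no peak was listed in Bcat_KO. The fold was 7.57 and 9.06 in HOXA9_KO, 7.84 and 9.11 in PRMT1_KO, and 8.68 and 9.19 in WT. All 6 other libraries of the paired groups listed the region, and the dKO did not. It lay 4.87 Mb from Ctnnb1, at the outer edge of the window. Its rank was between 8060 and 16848 in those 6 libraries, beside a dKO list of 10639 peaks.

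**Figure D1:**
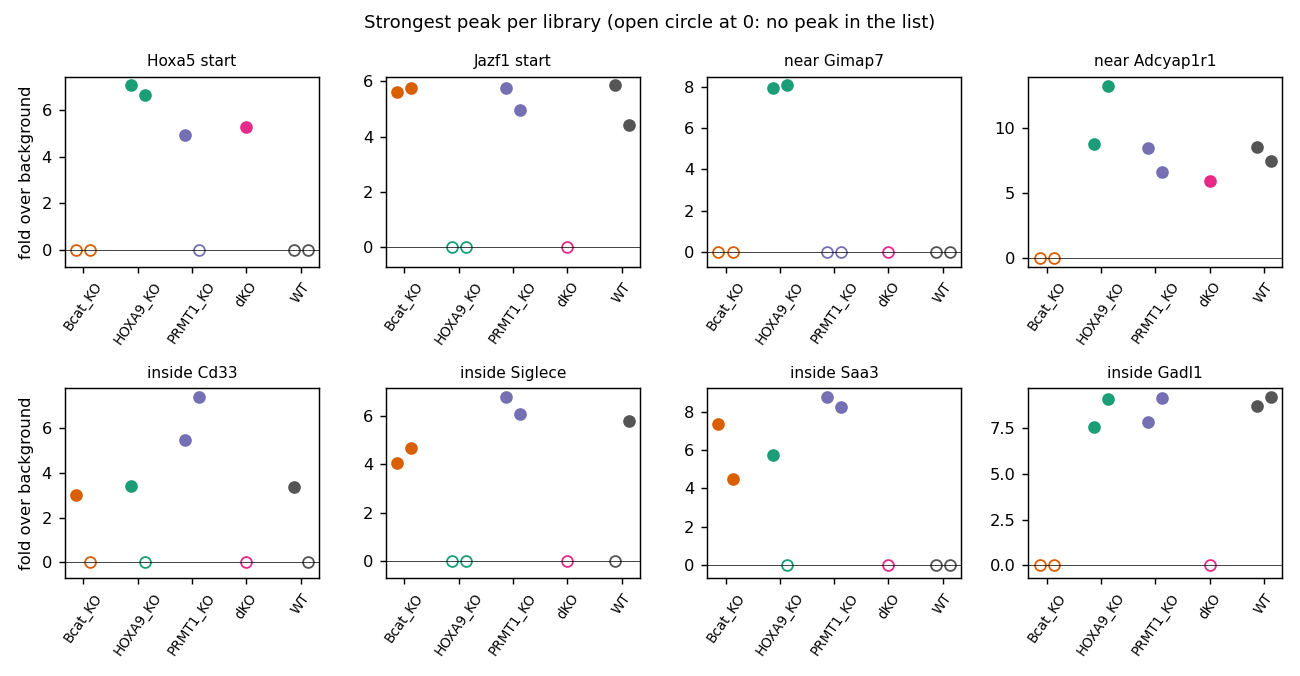
Fold of the strongest peak over local background (vertical axis, the authors' value for each peak) in each library at 8 regions of the flanks; an open circle at 0 means that no peak was listed. The Hoxa5 start was listed in both HOXA9_KO libraries, 1 PRMT1_KO library and the dKO; the Gadl1 region was missing in both Bcat_KO libraries and the dKO.

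The looser rule gave enough calls to compare mutants within a flank. Against WT, HOXA9_KO was called at 25 regions of the Hoxa9 flank (10.8%; background 9.45%), of which 16 were opened (background 5.33%) and 9 closed (background 4.12%). In the same flank Bcat_KO had 29 calls (12.6%; background 7.95%) and PRMT1_KO 17 (7.36%; background 7.5%). In the Prmt1 flank PRMT1_KO was called at 27 regions (9.64%), 19 of them opened (background 4.22%) and 8 closed (background 3.27%), while HOXA9_KO had 22 (7.86%) and Bcat_KO 21 (7.5%). For the Ctnnb1 flank Bcat_KO had 16 (7.92%), 10 of them opened (background 4.41%) and 6 closed (background 3.54%), PRMT1_KO 17 (8.42%) and HOXA9_KO 11 (5.45%). The 3 comparisons share the WT libraries, whose lists were the shortest. In the Hoxa9 and the Ctnnb1 flank another mutant than the own one had the most calls.

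Against the other mutants, which leaves WT out, HOXA9_KO was called at 11 of 231 regions of its own flank (4.76%), against 3.78% of all regions and 4.72% of the rest of chromosome 6 (122 of 2586). Of the 11, 7 were opened (background 2.18%) and 4 closed (background 1.61%). Bcat_KO had 3 calls in that flank and PRMT1_KO 4. PRMT1_KO was called at 9 of 280 regions of its own flank (3.21%), against 2.71% of all regions and 2.14% of the rest of chromosome 7 (56 of 2618). Of the 9, 5 were opened (background 1.75%) and 4 closed (background 0.961%). HOXA9_KO also had 9 calls there and Bcat_KO 2. Bcat_KO was called at 7 of 202 regions of its own flank (3.47%), against 1.09% of all regions and 1.09% of the rest of chromosome 9 (22 of 2016). Of the 7, 5 were opened (background 0.704%) and 2 closed (background 0.388%). PRMT1_KO had 9 calls in the Ctnnb1 flank (4.46%, against 2.71% of all regions) and HOXA9_KO 6. The own-flank share of HOXA9_KO and of PRMT1_KO was near its background, whereas that of Bcat_KO was above it, as was that of PRMT1_KO in the same Ctnnb1 flank. The Bcat_KO count rests on the libraries: it was 15 without Bcat_KO replicate 1, 13 without Bcat_KO replicate 2, 13 without HOXA9_KO replicate 2 and 3 without WT replicate 2, which sets the list length. It was 4 on the lists as deposited and 3 at a −log10 q of at least 5. Leaving out a mutant library relaxes the rule for every region. The share over all regions was not counted in these settings, so the 1.09% does not serve as their background.

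**Figure D2:**
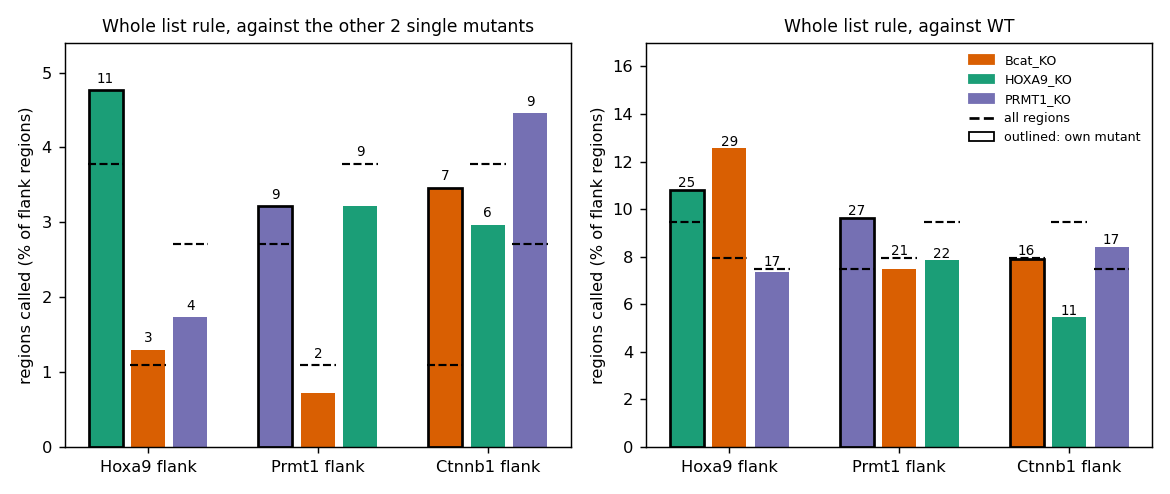
Share of each flank's regions called by the looser rule (bars, percent, with the number of regions) for each single mutant against the other 2 single mutants (left) and against WT (right); dashed lines show the share over all regions and black outlines the own mutant. In the Ctnnb1 flank, 7 regions were called in Bcat_KO and 9 in PRMT1_KO against the other mutants.

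The 11 HOXA9_KO calls included 2 regions in the Gimap cluster, which encodes GTPases of lymphocyte survival. The start of Gimap8, at chr6:48647087-48647419, had a fold of 7.10 and 6.83 in HOXA9_KO and 4.61 in PRMT1_KO replicate 1, and no peak was listed in PRMT1_KO replicate 2, Bcat_KO, the dKO or WT. A region 906 bp from Gimap7, at chr6:48725542-48725821, had a fold of 7.91 and 8.05 in HOXA9_KO and a peak in no other library. Gimap5 and Gimap6, from the same cluster, were not called, and the start of Gimap5 had a peak in all 9 libraries. A region inside Mpp6, a membrane scaffold gene, at chr6:50121018-50121280, was likewise listed in HOXA9_KO only, with a fold of 6.07 and 6.21. These regions lay 3.58, 3.50 and 2.10 Mb from Hoxa9. The other opened calls were 5396 bp from Gm40363, inside Chn2, inside Vmn1r4 and at the Hoxa5 start. The Gm40363 region had a fold of 8.04 and 5.03 in WT, beside 7.69 and 6.81 in HOXA9_KO. Against WT it was closed in Bcat_KO and PRMT1_KO. The Chn2 region had a peak in WT replicate 1 (fold 4.92) and the Vmn1r4 region in WT replicate 2 (fold 5.91). Neither they nor the Gm40363 region were called in HOXA9_KO against WT.

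The call nearest to Hoxa9 was the start of Hoxa5, a neighbouring homeobox gene, in chr6:52204277-52204739, 0.0186 Mb away. Its fold was 7.04 and 6.62 in HOXA9_KO, 4.93 in PRMT1_KO replicate 1 and 5.27 in the dKO. No peak was listed in PRMT1_KO replicate 2, Bcat_KO or WT. The 2 mutants of Hoxa9, single and double, thus both listed it and WT did not, and the region spans 152 bases of the Hoxa5 promoter. Of the 45 members of the Hoxa9 flank with a dKO peak it was the only one that had no WT peak and a peak in a single mutant. Of the 7 members opened in HOXA9_KO against the other mutants, 1 had a dKO peak, this one. Over all 1019 regions opened in that comparison, 98 (9.62%) had a dKO peak, which gives 1 of 7 to the nearest whole region.

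The 4 closed calls were a region near Mturn and 3 regions between genes. The one nearest to Hoxa9, 0.244 Mb away and 74346 bp from Hibadh at chr6:52471417-52471884, had a fold of 3.53 and 4.10 in HOXA9_KO, 6.04 and 6.66 in Bcat_KO, 10.9 and 9.30 in PRMT1_KO, and 7.23 in WT replicate 1, with no peak in WT replicate 2 or the dKO. It was thus listed in all 6 single-mutant libraries, with its lowest folds in HOXA9_KO, and was not called against WT. A region 44192 bp from Npy, a neuropeptide gene, at chr6:49778061-49778518, had a fold of 4.41 and 4.91 in HOXA9_KO, 7.16 and 5.81 in Bcat_KO, 8.06 and 7.76 in PRMT1_KO, and 4.25 in WT replicate 1 alone of that pair. There HOXA9_KO was close to WT, and the other mutants were the ones called against WT. The third, 49573 bp from Gm38821 at chr6:51172871-51173384, had a fold of 4.49 in HOXA9_KO replicate 2 alone of that pair, 6.09 and 5.13 in Bcat_KO, 8.03 and 6.41 in PRMT1_KO, and 4.43 and 5.51 in WT, and it was called closed against WT too.

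Jazf1, a zinc-finger cofactor gene 0.841 Mb from Hoxa9, had the reverse pattern to the Hoxa5 start. Its start region, chr6:53067849-53068901, had no peak in HOXA9_KO. The fold was 5.61 and 5.75 in Bcat_KO, 5.76 and 4.94 in PRMT1_KO, and 5.85 and 4.43 in WT. All 6 other libraries of the paired groups listed it and the dKO did not. These were weak peaks in all 6: the best rank was 19150, in WT replicate 1, and the peak of PRMT1_KO replicate 2 fell outside the shortened list. It was therefore called against WT and not against the other mutants.

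Of the 9 PRMT1_KO calls against the other mutants, 4 lay in or near Cd33 and Siglece, which encode sialic acid-binding lectins of myeloid cells, and the others lay elsewhere in the flank. Inside Cd33, at chr7:43530335-43530836, the fold was 5.45 and 7.38 in PRMT1_KO, 2.99 in Bcat_KO replicate 1, 3.39 in HOXA9_KO replicate 1 and 3.36 in WT replicate 1, and the other libraries had no peak. The ranks were 17279 and 10107 in PRMT1_KO and 29874 or later elsewhere. The Cd33 start itself had a peak in all 8 libraries. A further region 8672 bp from Cd33, at chr7:43546096-43546379, had a fold of 4.93 and 5.19 in PRMT1_KO and 3.34 in Bcat_KO replicate 2 alone of the others. Inside Siglece, an inhibitory Siglec of mouse myeloid cells, chr7:43654543-43654805 had a fold of 6.89 and 6.15 in PRMT1_KO, and 4.13 and 4.76 in Bcat_KO, with no peak in HOXA9_KO or WT. The neighbouring region chr7:43656120-43656663 also had a peak in WT replicate 2, with a fold of 5.79, and was not called against WT. These 4 regions lay between 1.32 and 1.45 Mb from Prmt1 and were the opened calls of the flank but for 1, near Spty2d1. The 4 closed calls were in or near Trpm4, Sult2b1, Nomo1 and Nav2. Near Trpm4, a cation channel gene, chr7:45299859-45300206 had a fold of 4.99 in PRMT1_KO replicate 1, 10.1 and 7.91 in Bcat_KO, and 6.13 and 10.0 in HOXA9_KO, with no peak in PRMT1_KO replicate 2 or WT.

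The 7 Bcat_KO calls against the other mutants were mostly weak peaks. The Gadl1 region and the start of Gask1a were closed. At Gask1a, chr9:121950707-121951211, the fold was 4.78 in Bcat_KO replicate 2, 5.68 and 5.77 in PRMT1_KO, 5.74 and 5.46 in HOXA9_KO, and 4.43 in WT replicate 2. The opened regions were in Eomes, Ctdspl, Plcd1, Wdr48 and Ttc21a. Inside Eomes, a T-box factor gene, chr9:118478570-118479404 had a fold of 5.76 and 5.51 in Bcat_KO, 4.86 in HOXA9_KO replicate 1, 4.82 and 3.46 in PRMT1_KO, 5.31 in the dKO, and 4.56 and 5.02 in WT. WT listed this region too, so against WT it was closed in HOXA9_KO and PRMT1_KO and not called in Bcat_KO. At the Plcd1 start, chr9:119093386-119093788, the fold was 5.1 and 4.9 in Bcat_KO, and 3.77 and 4.90 in PRMT1_KO. Its ranks of 27001 and 28203 in Bcat_KO and 28783 in PRMT1_KO replicate 2 lay on either side of the list length, so that call turns on a small difference in rank. The regions named under the looser rule were chosen after their values were seen.

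**Figure D3:**
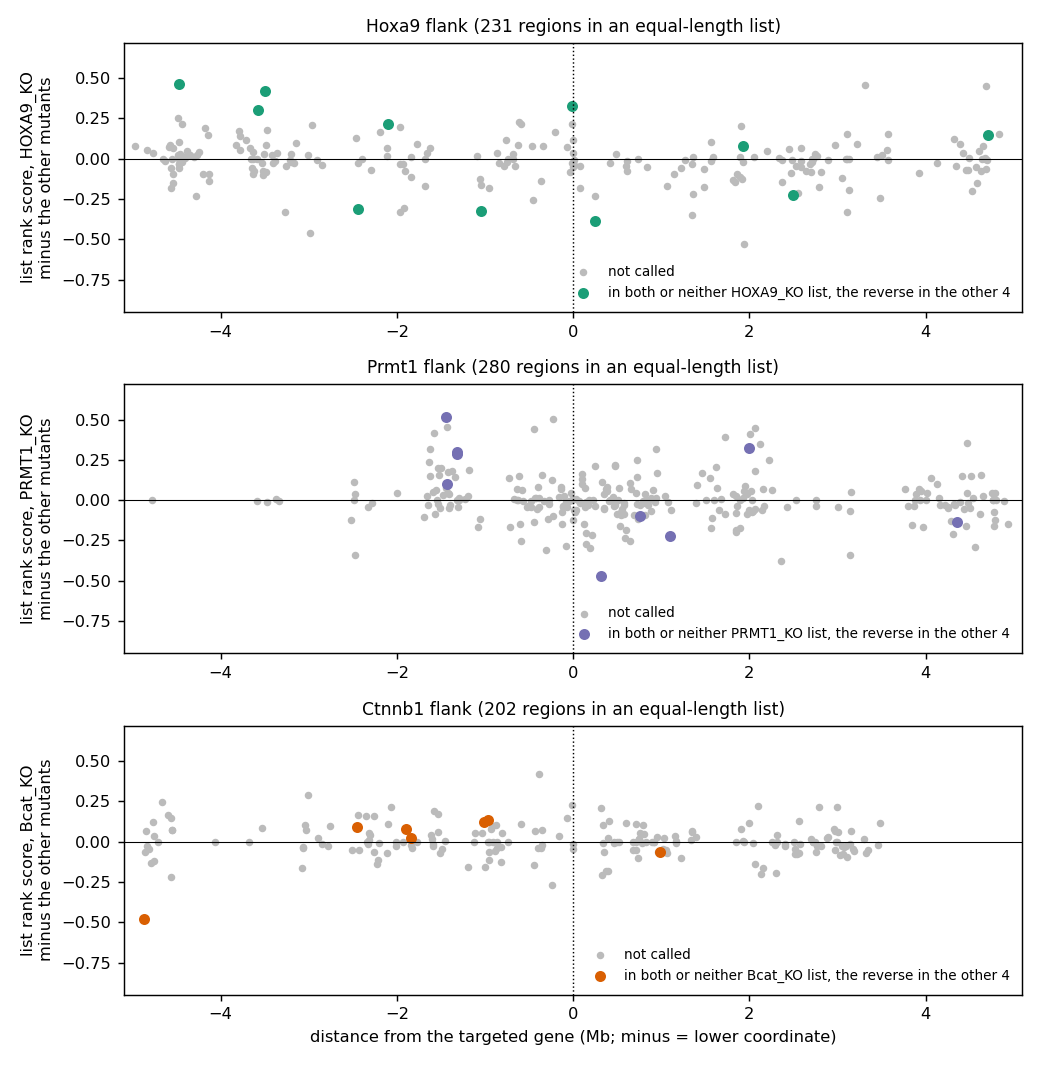
Difference in list rank score (1 for the strongest peak, 0 outside the shortened list) between the own mutant and the mean of the other 2 single mutants, for each region by its distance from the targeted gene in Mb; coloured points are the 11, 9 and 7 regions called by the looser rule. The called regions are spread over the Hoxa9 window, and 4 of the 9 in the Prmt1 window lie between 1.32 and 1.45 Mb below the gene.

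Distance from the targeted gene did not order the differences. For HOXA9_KO against the other mutants, the mean absolute difference in list rank score (1 for the strongest peak, 0 outside the shortened list) was 0.0975 within 1 Mb of Hoxa9, 0.121 at 1 to 2 Mb, 0.0848 at 2 to 3 Mb, 0.0960 at 3 to 4 Mb and 0.0810 at 4 to 5 Mb, beside 0.0929 on the autosomes. For PRMT1_KO the same steps out from Prmt1 gave 0.0899, 0.116, 0.123, 0.0643 and 0.0804, beside 0.0869 on the autosomes. Bcat_KO had 0.0732, 0.0499, 0.0676, 0.0684 and 0.118 around Ctnnb1, beside 0.0694. The outermost Ctnnb1 step held 17 regions, the Gadl1 region among them, and the 3 to 4 Mb step of Prmt1 held 18. In each flank the value within 1 Mb of the gene was close to that of the autosomes.

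The flanks as wholes were compared by setting each pair against the other 6 libraries. The mean absolute difference in list rank score over a flank was divided by the same mean over all autosomal regions, so that 1 means no more difference than elsewhere. HOXA9_KO had a ratio of 0.988 in the Hoxa9 flank (one-sided exact permutation test over all 28 choices of 2 of 8 libraries, p = 0.964, adjusted over the 3 flanks 0.964). In that flank the ratio was 1.16 for Bcat_KO, 1.07 for PRMT1_KO and 1.07 for WT. PRMT1_KO had a ratio of 1.11 in the Prmt1 flank, the highest of all 28 choices, which gives the smallest exact permutation p these choices allow, 0.0357, and an adjusted p of 0.107. HOXA9_KO had 0.947, Bcat_KO 0.916 and WT 0.929 there. Bcat_KO had a ratio of 0.990 in the Ctnnb1 flank (exact permutation p = 0.143, adjusted 0.214), above PRMT1_KO at 0.920, HOXA9_KO at 0.814 and WT at 0.976. No own pair passed 0.05 after adjustment. The ratio of Bcat_KO in the Hoxa9 flank was likewise the highest of its 28 choices (exact permutation p = 0.0357; 0.161 adjusted over the 9 pairs of flank and mutant), so a pair can lead in a flank that is not its own.

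**Figure D4:**
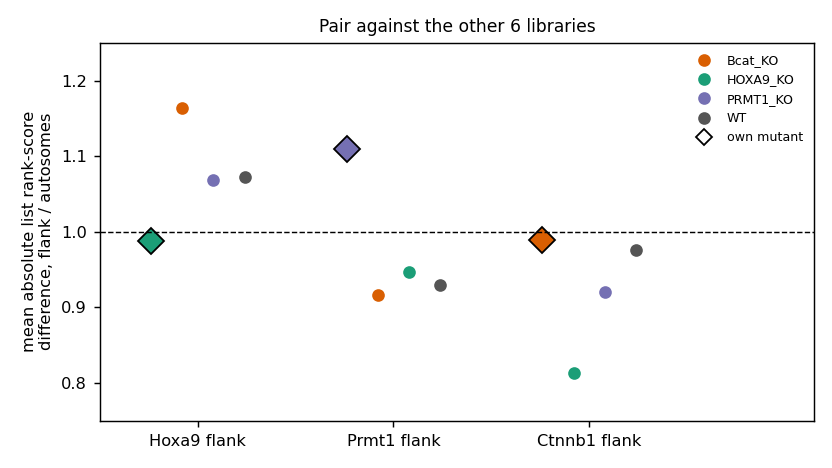
Mean absolute difference in list rank score between a pair of libraries and the other 6, as flank over autosomes (vertical axis; the dashed line marks 1), for each flank and pair; diamonds are the own mutants. PRMT1_KO leads in the Prmt1 flank at 1.11, and Bcat_KO, not HOXA9_KO, leads in the Hoxa9 flank at 1.16.

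The share of the strongest peaks that fell in a flank was compared between the own pair and the other 6 libraries. The Prmt1 flank took 0.706% and 0.678% of the shortened lists in PRMT1_KO, 0.667% and 0.664% in Bcat_KO, 0.681% and 0.635% in HOXA9_KO, and 0.625% and 0.643% in WT. PRMT1_KO averaged 0.692% ± 0.0200 (SD, n = 2) and the other 6 libraries 0.653% ± 0.0216 (SD, n = 6), with a two-sided exact permutation p of 0.107 (adjusted 0.321). One HOXA9_KO library reached the range of PRMT1_KO. In the Hoxa9 flank HOXA9_KO averaged 0.477% ± 0.0150 (SD, n = 2) and the other 6 libraries 0.470% ± 0.0312 (SD, n = 6; exact permutation p = 0.821, adjusted 0.821). For the Ctnnb1 flank Bcat_KO averaged 0.401% ± 0.0225 (SD, n = 2) and the others 0.417% ± 0.0201 (SD, n = 6; exact permutation p = 0.286, adjusted 0.429). None of the 3 differences passed the test. In the Prmt1 flank the difference was larger than the SD of either side, and PRMT1_KO replicate 1 lay above all 6 other libraries, while in the Hoxa9 and Ctnnb1 flanks the difference was smaller than the SDs. Other groups lay apart without a test. In the Hoxa9 flank WT had 0.445% and 0.434%, while the single-mutant libraries ranged from 0.462% to 0.523%. In the Ctnnb1 flank PRMT1_KO had 0.445% and 0.424%, and HOXA9_KO 0.388% and 0.399%.

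Peak strength was tested where every library had a peak. The ranks of the 19172 regions with a peak in all 8 libraries were turned into normal scores and fitted with limma, and p-values were adjusted over all of them. This covered 88 members of the Hoxa9 flank, 146 of the Prmt1 flank and 82 of the Ctnnb1 flank. Against WT, 0 members passed 0.05 in any mutant, with 1.03% of all regions passing in HOXA9_KO, 0.0261% in Bcat_KO and 0% in PRMT1_KO. At an unadjusted limma p below 0.05 the counts in the own mutant were 19 in the Hoxa9 flank (21.6%, against 18.6% of all regions fitted), 25 in the Prmt1 flank (17.1%, against 15.4%) and 12 in the Ctnnb1 flank (14.6%, against 17.2%). These shares lay near those over all regions.

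Against the other mutants, 2 members of the Hoxa9 flank were lower in HOXA9_KO, with 0.501% of all regions passing. Inside Chn2, which encodes a Rac-regulating protein, the normal score of chr6:54162733-54163179 was −0.94 and −1.14 in HOXA9_KO, 0.70 and 0.04 in Bcat_KO, 0.43 and 0.92 in PRMT1_KO, and −0.31 and −0.50 in WT. Both HOXA9_KO values were the lowest of the 8, with WT between them and the other mutants. The difference from the other mutants was −1.56 (SE 0.25, limma adjusted p = 0.0485), and that from WT was −0.63 (SE 0.28, limma adjusted p = 0.281). A region 14835 bp from Mturn, a neural differentiation gene, at chr6:54718690-54719338, scored −2.21 and −2.19 in HOXA9_KO, −1.42 and −1.16 in Bcat_KO, −0.95 and −1.01 in PRMT1_KO, and −1.27 and −1.18 in WT. Its difference from the other mutants was −1.07 (SE 0.17, limma adjusted p = 0.0498), and the HOXA9_KO values lay below all others. Both stood close to the threshold, and no more than 1 of the 2 passed without any 1 of the 8 libraries: 1 without WT replicate 2, and 0 without each of the other 7.

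The same contrast passed at 1 member of another flank. Inside Tmem86a, a lysoplasmalogenase gene of the Prmt1 flank, chr7:47051746-47052135 scored −1.60 and −2.12 in HOXA9_KO, −0.78 and −0.88 in Bcat_KO, −0.05 and −0.08 in PRMT1_KO, and −1.29 and −1.04 in WT. The difference of HOXA9_KO from the other mutants was −1.41 (SE 0.21, limma adjusted p = 0.0411), and with 1 library left out its limma adjusted p was between 0.0599 and 0.191. PRMT1_KO and Bcat_KO had 0 members past the threshold in their own flanks against the other mutants, where 0.00522% of all regions passed in either, and 20 and 7 members at an unadjusted limma p below 0.05. The members at that unadjusted level were 13.7% of the Prmt1 flank and 8.54% of the Ctnnb1 flank, against 12.6% and 6.31% of all regions fitted. For HOXA9_KO in the Hoxa9 flank they were 13 members, or 14.8%, against 14.3% of all regions fitted, so that flank lay near its background.

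Peaks present in both libraries of 1 mutant and in no other library of the paired groups were counted on the full lists, a rule added after the data were seen. HOXA9_KO alone listed 2 regions of the Hoxa9 flank, those near Gimap7 and in Mpp6, against 1.11% of all regions, and alone lacked 1, the Jazf1 start, against 0.363%. In that flank Bcat_KO alone listed 8 regions, against 0.753% of all regions, and PRMT1_KO alone listed 3, against 1.03%. PRMT1_KO alone lacked 0 regions of any flank, against 0.117% of all regions. It alone listed 2 regions of its own flank, 1 inside Ptpn5, a tyrosine phosphatase gene, and 1 inside Prmt3, a related arginine methyltransferase gene, at chr7:49842900-49843250, with folds of 4.86 and 3.71. Bcat_KO alone listed 2 regions of its own flank, inside Myrip and Trak1, and alone lacked 1, that of Gadl1 (0.286%), against 0.0784% of all regions. It also alone lacked 1 region of the Hoxa9 flank (0.253%), the one near Adcyap1r1. HOXA9_KO alone listed 4 regions of the Ctnnb1 flank and alone lacked 2, 1 more than in its own flank, and PRMT1_KO alone listed 5. The full lists differ in length, so each count is read beside the share of the same mutant over all regions. Of 396 regions of the Hoxa9 flank, 2.02% were listed only in Bcat_KO (0.753% of all regions). Only in HOXA9_KO were 0.505% listed (1.11% of all regions). Of 350 regions of the Ctnnb1 flank, 1.43% were listed only in PRMT1_KO (1.03%) and 0.571% only in Bcat_KO (0.753%). In the Ctnnb1 flank both shares rest on few regions, 5 and 2, and lay near those over all regions. These differences were not tested.

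Genes of each flank were also counted from lists chosen by location and role. Of 21 genes of the Hoxa cluster and its neighbours, 20 had a region within the gene or 2 kb of it, and 5 of the 19 with a start in the promoter table had a start peak in all 8 libraries. Those 5 were Skap2, Ezh2, Cul1, Tra2a and Gimap5. Ezh2 encodes the H3K27 methyltransferase, and its start had a fold of 15.3 and 15.0 in HOXA9_KO, 15.9 and 17.9 in Bcat_KO, 15.3 and 16.01 in PRMT1_KO, 5.79 in the dKO, and 10.95 and 11.9 in WT. The Hoxa genes themselves had weaker and less regular starts: Hoxa3, Hoxa9 and Hoxa10 had one in 7 of 8 libraries, and Hoxa7 in 6, with none in either WT library. By the looser rule 4 genes of the list had an opened region in HOXA9_KO against WT. They were Hoxa3, Hoxa5, Hoxa6 and Hoxa7, of which the first 3 share the Hoxa5 region. Bcat_KO had an opened region against WT at 3 genes of the list, Hoxa3, Hoxa4 and Hoxa7, and PRMT1_KO at 0. Jazf1 was the only gene of the list with a closed region against WT, with 2 in HOXA9_KO and 1 in Bcat_KO. Over all regions the opened share against WT was 5.33% in HOXA9_KO, 4.41% in Bcat_KO and 4.22% in PRMT1_KO. The closed share was 4.12% in HOXA9_KO and 3.54% in Bcat_KO. These are shares of regions, and a gene can hold several, so they are no background for a count of genes. Against the other mutants Hoxa3, Hoxa5 and Hoxa6 had an opened region in HOXA9_KO, which is the same Hoxa5 region counted at each. In that comparison 2.18% of all regions were opened. Hoxa3 also had 1 region closed in PRMT1_KO against the other mutants, where 0.961% of all regions were closed.

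On the Prmt1 side, 15 of 15 genes had a region and 12 of 14 starts had a peak in all 8 libraries. At the start of Irf3, an interferon response factor gene that neighbours Prmt1, the fold was 11.4 and 7.75 in PRMT1_KO, 9.55 and 8.51 in Bcat_KO, 11.03 and 13.5 in HOXA9_KO, 5.14 in the dKO, and 7.21 and 6.64 in WT. By the looser rule 2 genes, Bax and Cd33, had an opened region in PRMT1_KO against WT, and 1, Prmt3, a closed one. Over all regions PRMT1_KO had 4.22% opened and 3.27% closed, which again are shares of regions and not of genes. Bax was opened in Bcat_KO too, which had Il4i1 and Prmt3 closed, while HOXA9_KO had 0 genes opened. Prmt3 had a closed region in all 3 mutants against WT. Against the other mutants Cd33 alone was called in PRMT1_KO.

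Of 18 genes on the Ctnnb1 side, 16 had a region, 6 of 16 starts had a peak in all 8 libraries and 7 in none. The 7 were mainly chemokine receptor genes of mature leukocytes, Ccr8, Ccr2, Ccr3, Ccr9, Cxcr6 and Xcr1, with the integrin gene Itga9. At the Tgfbr2 start, the type II TGF-β receptor, the fold was 9.39 and 8.90 in Bcat_KO, 9.38 and 7.74 in PRMT1_KO, 9.56 and 8.77 in HOXA9_KO, 7.37 in the dKO, and 8.56 and 7.21 in WT. By the looser rule 2 genes, Acvr2b and Itga9, had an opened region in Bcat_KO against WT and 0 a closed one, where 4.41% of all regions were opened. That too is a share of regions and not of genes, and Itga9 held 21 regions. PRMT1_KO had more, with Ccr2, Limd1, Snrk and Itga9 opened and Eomes closed, and HOXA9_KO had Acvr2b opened and Eomes and Limd1 closed. Against the other mutants Eomes alone was called in Bcat_KO, while 3 genes (Ccr2, Limd1 and Itga9) had an opened region in PRMT1_KO.

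The dKO carries mutations of both Ctnnb1 and Hoxa9, and its single short list can describe only presence. It listed 45 regions of the Hoxa9 flank (11.3%), 37 of the Ctnnb1 flank (10.5%) and 65 of the Prmt1 flank (15.7%), against 13.7% of all regions. Regions listed in the dKO and in neither WT library numbered 4 in the Hoxa9 flank, 2 in the Ctnnb1 flank and 7 in the Prmt1 flank. Of these 13, all but the Hoxa5 start were listed in the dKO alone. Those were 3 of 399 regions of the Hoxa9 flank, 2 of 352 of the Ctnnb1 flank and 7 of 415 of the Prmt1 flank. Among all 76253 regions, 951 were listed in the dKO alone. With counts this small, the flanks cannot be ranked.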

How the data were processed

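ATAC-seq libraries of 50000 LSK cells were tagmented for 30 min, per the labels. Per the submitters' processing notes, reads were handled with Bowtie2 2.4.2, SAMtools 1.14, Picard 2.27.4 and MACS2 on GRCm38/mm10. The authors deposited 1 peak list per library, with a score, a fold enrichment over local background, −log10 p-values, −log10 q-values and a summit offset for each peak. The deposited −log10 q-values began at 1.00 to 1.01. No read totals are given, so the depth is unknown, and no normalization between libraries enters the lists. Where a list lacks a peak, the region may only have been too weak to detect at that depth.

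From these lists, peaks sharing 1 bp were merged, lists were shortened to 28325 peaks, and each region took the best rank of its peaks. Ranks replaced folds in all comparisons. Normal scores of ranks were fitted with limma 3.58.1 over the 8 libraries of the paired groups, with no block for the replicate number, and adjusted by Benjamini-Hochberg over 19172 regions. The other tests were exact permutations over 28 choices of 2 of 8 libraries, in Python 3.11.15. The smallest p they allow is 0.0357. The rules and the fit were tested on simulated data.

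Genes and starts came from RefSeq tables of GRCm38.p6, which give gene spans and no exons. The members and gene lists were chosen with earlier results of these data known. Regions named by rule were those called by the stricter rule, those past 0.05 in the rank-score fit, those within 2 kb of the targeted genes and the best-ranked member of each flank. Alternatives covered the list as deposited, ranks by fold, a −log10 q of at least 5, an overlap of 100 bp, regions under 200 bp left out, windows of 2 and 10 Mb, the replicate block and each library left out. The dKO entered no test. No genome sequence was used here, so sequences of peaks outside promoters are not shown.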

Additional observations from a re-analysis of the deposited data

Results flagged for a closer look

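Differences of HOXA9_KO from the mean of the other mutants passed the limma test (adjusted over 19172 regions) at 3 members, and each is a difference between mutants under 1 contrast. In the Chn2 region (chr6:54162733-54163179) the normal score differed by −1.56, near Mturn (chr6:54718690-54719338) by −1.07, and in the Tmem86a region of the Prmt1 flank (chr7:47051746-47052135) by −1.41. The own flank of HOXA9_KO held 2 of the 3, and 96 regions passed the same contrast over all chromosomes.

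The dKO library, which enters no comparison, listed peaks at 13 members where neither WT library had one. In the Hoxa9 flank the folds were 4.32 inside Cntnap2 (chr6:47239490-47239682), 3.42 in chr6:51813232-51813761, 5.27 at the Hoxa5 start (chr6:52204277-52204739) and 3.36 inside Jazf1 (chr6:52810757-52810997). For the Prmt1 flank they were 3.98 in chr7:40252960-40253263, 3.42 in chr7:40457382-40457622, 3.32 at the Zfp936 start (chr7:43177391-43177644), 3.54 in Slc17a7 (chr7:45163923-45164133), 3.96 inside Trpm4 (chr7:45327351-45327653), 4.79 inside Nav2 (chr7:49212954-49213196) and 4.01 in chr7:49617658-49617872. In the Ctnnb1 flank they were 3.42 inside Rbms3 (chr9:117099354-117099557) and 3.42 inside Lars2 (chr9:123395456-123395801). With 1 dKO library there is no replicate check, and only the Hoxa5 start had a peak in a single mutant. The others were listed in the dKO alone, as were 951 of all 76253 regions.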

How the results depend on the processing

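Counts of calls by the stricter rule moved most. Apart from the whole shortened list, which is the looser rule, the share over all regions was not counted in these settings. The counts therefore have no background of their own, and windows of 2 and 10 Mb also change the number of members. Against WT, the own-flank counts for Hoxa9, Prmt1 and Ctnnb1 were 6, 8 and 3 on the lists as deposited, 0, 0 and 0 at a −log10 q of at least 5, and 25, 27 and 16 with the whole shortened list; the Hoxa9 count was 1 within 2 Mb and 4 within 10 Mb, and the Ctnnb1 count 0 within 2 Mb. Against the other mutants the counts were 1 for Hoxa9 and 1 for Ctnnb1 on the lists as deposited, and 11, 9 and 7 with the whole shortened list. With 1 library left out, they ranged from 2 to 5 (Hoxa9), 3 to 7 (Prmt1) and 1 to 4 (Ctnnb1) against WT, and from 0 to 2, 0 to 1 and 0 to 1 against the other mutants. Leaving out a library relaxes the rule by construction, and without WT replicate 2 the lists also lengthen. By the looser rule against the other mutants they ranged from 11 to 23, 6 to 24 and 3 to 15, and were 7, 5 and 4 on the lists as deposited and 4, 7 and 3 at a −log10 q of at least 5, with 4 for Hoxa9 within 2 Mb and 19 within 10 Mb.

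The flank ratio of HOXA9_KO turned above 1 within 2 Mb (1.15) and 10 Mb (1.12), and that of Bcat_KO with ranks by fold (1.03) and at a −log10 q of at least 5 (1.03). With 1 library left out the ratios ranged from 0.957 to 1.02 for HOXA9_KO, from 1.08 to 1.13 for PRMT1_KO and from 0.969 to 1.05 for Bcat_KO. The difference in share of strongest peaks, own pair minus the rest, changed sign for HOXA9_KO with ranks by fold (−0.00588), at a −log10 q of at least 5 (−0.0201) and within 2 Mb (−0.00824), and for PRMT1_KO at a −log10 q of at least 5 (−0.00587). With 1 library left out it ranged from −0.00450 to 0.0171 for HOXA9_KO, from 0.0250 to 0.0535 for PRMT1_KO and from −0.0318 to 0 for Bcat_KO. The causes were not tested.

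Of the limma counts, that of HOXA9_KO against the other mutants was 1 with ranks by fold, 1 with regions in all shortened lists, 1 within 2 Mb, 0 with the replicate block, and 0 to 1 with 1 library left out; against WT it was 1 with ranks by fold. Same-numbered libraries did not deviate together (correlations of −0.00253 to 0.0368), so the numbers were not taken as pairs, and the replicate block changed no other of these counts. The 2 libraries per group and the depth of the WT lists limit all of these values.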
